A study of Mus musculus with 6 samples.

Results

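The ADAMTS proteases are secreted zinc enzymes that carry thrombospondin repeats and cut proteins of the extracellular matrix. The 8 genes described here are Adamts1, Adamts2, Adamts4, Adamts5, Adamts7, Adamts9, Adamts12 and Adamts14, chosen by name among 15634 genes listed. They were chosen with earlier results of these data known. All 8 were found and all 8 had enough counts to be tested. The libraries hold RNA of mesenchymal stem cells (MSCs, adherent stromal cells that can form bone, fat and cartilage) cultured out of the bone marrow of wild-type (WT) C57BL/6J mice. In the TNF group, 3 libraries came from cells given the inflammatory cytokine TNF-α at 10 ng/mL for 24 h, and in the Control group 3 libraries came from cells left unstimulated. Both groups were kept in the same medium, α-MEM plus serum. Nothing in the labels ties the libraries of a group to different cultures or mice. The p-values therefore rest on the spread among these libraries, and that spread may be technical.

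ADAMTS enzymes are made as inactive precursors, and proprotein convertases such as furin remove the propeptide. Adamts1, Adamts4, Adamts5 and Adamts9 belong to the aggrecanase group, which cuts the large proteoglycans aggrecan and versican and is best known for the loss of cartilage in arthritis. Adamts2 and Adamts14 are procollagen N-proteinases, which remove the amino-terminal propeptide of fibrillar collagens before the fibrils form. Adamts7 and Adamts12 cut cartilage oligomeric matrix protein (COMP). The tissue inhibitor TIMP3 blocks several of these enzymes, and the endocytic receptor LRP1 takes some of them up from the cell surface.

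The enzymes share a catalytic site in which histidines hold a zinc ion. The codons of that site are shown because they let the 8 genes be compared within a part that all of them share. They come from the GENCODE M21 transcripts (GRCm38, whereas the deposited values were made on GRCm39), and capitals mark the codons of the zinc-binding histidines.
Adamts1: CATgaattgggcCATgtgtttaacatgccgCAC
Adamts4: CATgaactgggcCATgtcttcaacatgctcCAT
Adamts5: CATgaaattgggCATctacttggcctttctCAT
Adamts9: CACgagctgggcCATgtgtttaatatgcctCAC
Adamts2: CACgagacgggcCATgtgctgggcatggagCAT
Adamts14: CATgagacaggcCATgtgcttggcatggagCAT
Adamts7: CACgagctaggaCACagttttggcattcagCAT
Adamts12: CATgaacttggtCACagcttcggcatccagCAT
Over the 33 bases, Adamts2 and Adamts14 were the most alike of the 28 pairs, with 30 identical bases. Adamts1 and Adamts9 shared 28, Adamts1 and Adamts4 shared 27, and Adamts7 and Adamts12 shared 26. The least alike pair was Adamts9 and Adamts12, with 17. Adamts5 stood apart from the rest of its group by this measure, with 19 bases identical to Adamts4, 20 to Adamts1 and 18 to Adamts9.

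In each gene the site is exonic and crosses a splice junction, so each span given here includes an intron. On the minus strand lie Adamts1 (chr16:85799191-85799545, exons 3 and 4), Adamts5 (chr16:85878015-85887826, exons 2 and 3), Adamts9 (chr6:92905285-92908493, exons 8 and 9) and Adamts14 (chr10:61225465-61227123, exons 7 and 8). On the plus strand lie Adamts4 (chr1:171253210-171253915, exons 3 and 4), Adamts2 (chr11:50775403-50776134, exons 7 and 8), Adamts7 (chr9:90179456-90180640, exons 7 and 8) and Adamts12 (chr15:11241529-11255564, exons 7 and 8). Adamts1 and Adamts5 are next to each other on chromosome 16, with no protein-coding gene between them. Stretches of 31 bases shared with another member numbered at most 7 in any member's coding transcripts, of 4774 to 10761 per gene. Of all stretches of each gene, 6.26% in Adamts9 and 3.31% in Adamts4 also occur in some other gene, coding or not, on either strand.

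Total counts ranged from 45629973 to 55149746 in the TNF libraries and from 54141846 to 77142418 in the Control libraries. In TNF library 2, 18S ribosomal RNA made up 19.4% of all counts, beside 1.11% to 3.55% elsewhere. Mitochondrial mRNAs made up 4.45% in Control library 2, beside 1.59% to 2.16% elsewhere. All 12 markers of mesenchymal stromal cells on the list used were measured, with summed levels of 4051 to 4759 TPM in TNF and 6882 to 7852 TPM in Control libraries. Much of these sums was Col1a1 (mean 1089 TPM in TNF and 2369 TPM in Control) and Col1a2 (1912 and 3274 TPM). In that list 3 genes were called higher (Pdgfra by 1.03 on the log2 scale, and Cd44 among them) and 3 lower, Col1a1 among them at -1.06. Over all tested genes, 16.0% were called higher and 16.4% lower. All 15 macrophage and blood cell markers were measured too, at 2137 to 2559 TPM in TNF and 3218 to 4482 TPM in Control libraries. In this list 3 genes were called higher (Csf1r, 0.36, Cd14, 1.13, and Spi1, 0.42, as log2 fold changes) and 7 lower, among them Cx3cr1 (-1.95) and C1qc (-1.46). These counts depend on the setting: 5 were called higher without Control library 2, but 1 higher and 9 lower with library totals, and 1 higher and 7 lower with limma on log2 TPM. The calls of Csf1r (edgeR adjusted p = 0.242) and Spi1 (0.0799) were lost with library totals, and that of Csf1r also without Control library 1, Control library 3 or TNF library 1 (up to 0.0971). None of the 15 was at 0 in any library. The part of such cells in the ADAMTS values was not tested. Of 11 chondrocyte markers 5 were measured, at 148 to 175 TPM in TNF and 248 to 298 TPM in Control, and 4 were called lower (Sox9, -1.14, Comp, -1.23, and Matn3, -2.72, among them). Most of that level was Col2a1 (mean 153 TPM in TNF and 244 TPM in Control). All listed genes had at least 10 counts in at least 3 libraries. Matn3 did so only through Control, so its call follows in part from that listing. Of 8 endothelial markers 2 were measured, at no more than 0.269 TPM in TNF and 0.381 TPM in Control. Of these Kdr was called lower, from 3 to 6 counts a library in TNF and 16 to 18 in Control, and not without Control library 1, Control library 3 or TNF library 1, by DESeq2 (adjusted p = 0.0520) or by limma on log2 TPM. Kdr, like Matn3, was listed only through its Control counts. In bulk RNA, fewer cells of a type and less RNA per cell cannot be told apart.

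With TNF-α, 4 of the 8 proteases rose (Adamts7, Adamts14, Adamts4 and Adamts5), 2 fell (Adamts9 and Adamts12) and 2 were not called (Adamts1 and Adamts2). The test was edgeR's quasi-likelihood test on counts, with Benjamini-Hochberg adjustment over all 15547 tested genes and a threshold of 0.05. Of all tested genes 16.0% were called higher and 16.4% lower, so 32.4% were called either way. Scaling by library totals instead called 1612 genes higher and 2571 lower, against 2489 and 2550, and left the calls of the 8 members as they were. In 7 of the 8 members the CPM values (library-scaled counts, with TMM factors) of the groups did not overlap, as in 48.7% of all tested genes (24.0% with TNF above Control and 24.7% with TNF below). The median log2 fold change of the 8 was 0.67, beside -0.0046 over all tested genes. Because the 8 were chosen with earlier results known, this describes them and not the whole family. Among the 5 other ADAMTS proteases measured, 0 were called higher and 4 lower. Only 280 tested genes (1.80%) had a higher log2 fold change than Adamts7, and 337 (2.17%) a higher one than Adamts14.

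**Figure D1:**
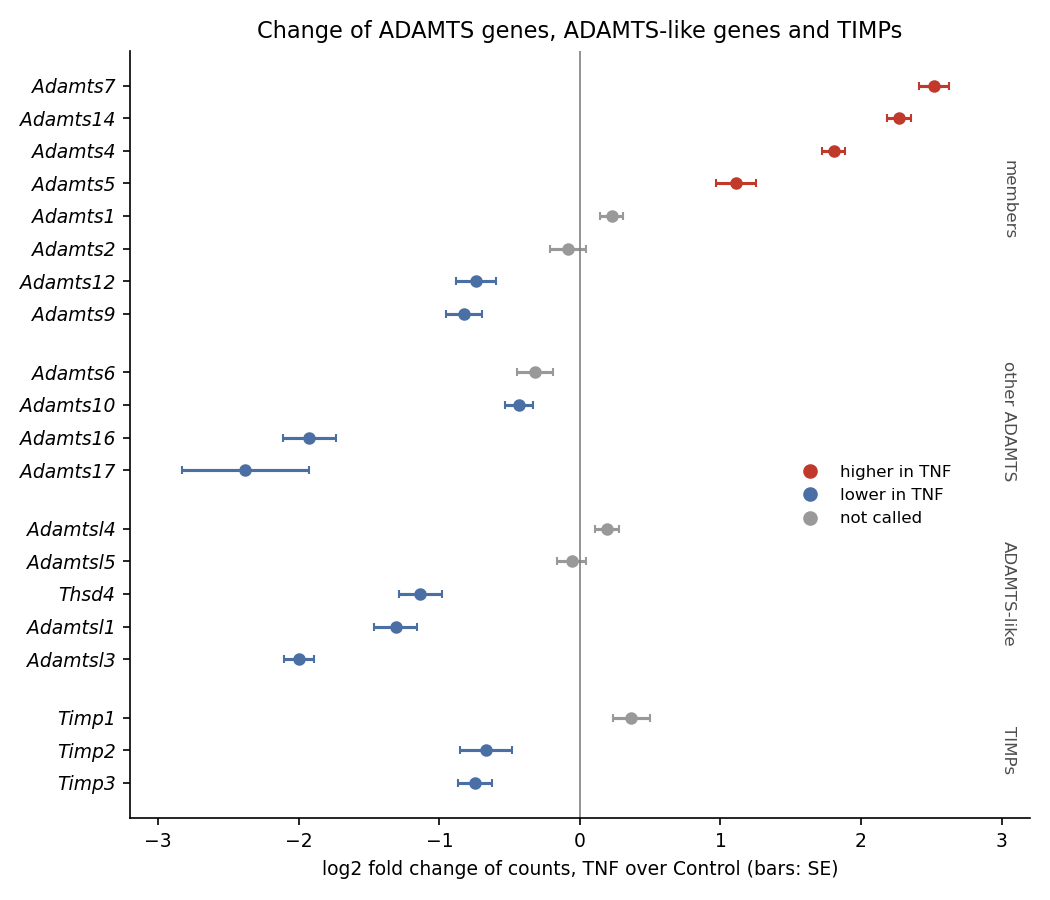
Log2 fold change of counts (TNF over Control, horizontal axis) with its SE for the 8 members and for other measured ADAMTS genes, ADAMTS-like genes and TIMPs, with colour for the call. Adamts7 lies highest at 2.52, and none of the other genes drawn was called higher. Adamts18, with 0 counts in TNF, is not drawn.

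Among the aggrecanases, Adamts4 rose most. The enzyme was first known as an aggrecanase of cartilage. Its level was 63.0, 49.97 and 62.1 TPM in TNF libraries 1, 2 and 3, against 18.9, 15.5 and 18.3 TPM in Control libraries 1, 2 and 3. Every TNF library lay far above every Control library. The fitted rise was 3.50-fold (log2 fold change 1.81 ± 0.08 SE, edgeR adjusted p = 1.04e-06).

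Adamts5 is the main aggrecanase of mouse cartilage, and it had the highest mean level of the 8 in both groups. In Control library 2, Adamts2 (40.4 TPM) was above it. Adamts5 stood at 90.4, 83.5 and 71.3 TPM in the TNF libraries, against 46.3, 30.5 and 43.7 TPM in the Control libraries. The groups did not overlap, and Control library 2 was the lowest of its group. The rise was 2.16-fold (log2 fold change 1.11 ± 0.14 SE, edgeR adjusted p = 0.000439), and 1.004 on the log2 scale without Control library 2. Its neighbour Adamts1, which also cuts versican and is known from ovulation, was nearly level. Adamts1 had 24.8, 20.1 and 23.1 TPM in TNF, against 20.1, 20.3 and 20.3 TPM in Control. These TPM values overlap in TNF library 2, the library with the most 18S reads. In CPM, which TMM scaling adjusts for such shifts, the 3 TNF libraries (62.7 to 65.7) lay above the 3 Control libraries (52.1 to 59.1). The log2 fold change of Adamts1 was 0.23 ± 0.08 SE, not called at edgeR adjusted p = 0.0603. DESeq2 called it (adjusted p = 0.0435), as did edgeR without Control library 2 (adjusted p = 0.0258).

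Adamts9, a versican-cutting protease that is also needed in the secretory pathway and for cilia, went the other way. It was the lowest of the 8 in TNF, at 2.02, 1.51 and 1.68 TPM, against 2.92, 3.22 and 2.90 TPM in Control. All TNF libraries lay below all Control libraries. It fell by 0.83 ± 0.13 (SE) on the log2 scale (edgeR adjusted p = 0.00122), which is 1.77 times lower in TNF. The library counts behind this were 270 to 439 in TNF and 721 to 1147 in Control. A730049H05Rik, which overlaps the Adamts9 locus in RefSeq, had 1.19 ± 0.200 CPM in TNF and 0.203 ± 0.0519 CPM in Control (SD, n = 3 each) and was called higher (edgeR adjusted p = 0.000265). The strand used in counting is not given in the sources used here, and another way of counting could divide the reads of this pair differently.

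Of the procollagen N-proteinases, Adamts14 was called and Adamts2 was not. Adamts14 had 21.2, 17.4 and 18.2 TPM in TNF, against 4.21, 3.83 and 4.35 TPM in Control. The lowest TNF library was several times the highest Control library. The rise was 4.81-fold (log2 fold change 2.27 ± 0.09 SE, edgeR adjusted p = 5.45e-07). Adamts2, the main enzyme of this role in skin, whose loss makes skin fragile, had 32.8, 30.5 and 30.7 TPM in TNF, against 36.2, 40.4 and 32.4 TPM in Control. The values of the groups overlapped. Its log2 fold change was -0.09 ± 0.13 SE (edgeR adjusted p = 0.641), and 0.07 without Control library 2, so no direction is given for it.

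The COMP-cleaving pair moved apart. Adamts7, which has been tied to vascular smooth muscle migration and atherosclerosis, had 16.3, 13.5 and 15.5 TPM in TNF, against 2.89, 2.90 and 2.51 TPM in Control. It was the lowest of the 8 in Control and the sixth in TNF. The rise of 5.74-fold was the largest among the members (log2 fold change 2.52 ± 0.11 SE, edgeR adjusted p = 8.66e-07). Its CPM values differed little within TNF, at 46.8, 46.4 and 46.4. Adamts12 had 3.13, 3.52 and 3.14 TPM in TNF, against 5.85, 6.06 and 5.24 TPM in Control. Groups again did not overlap, and it fell by 0.74 ± 0.14 (SE) on the log2 scale (edgeR adjusted p = 0.00417). Adamts7 shared 95 of its 5760 stretches of 31 bases with its neighbour Tbc1d2b, which itself had 148 ± 9.50 CPM in TNF and 88.2 ± 2.16 CPM in Control (SD, n = 3 each; log2 fold change 0.75).

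**Figure D2:**
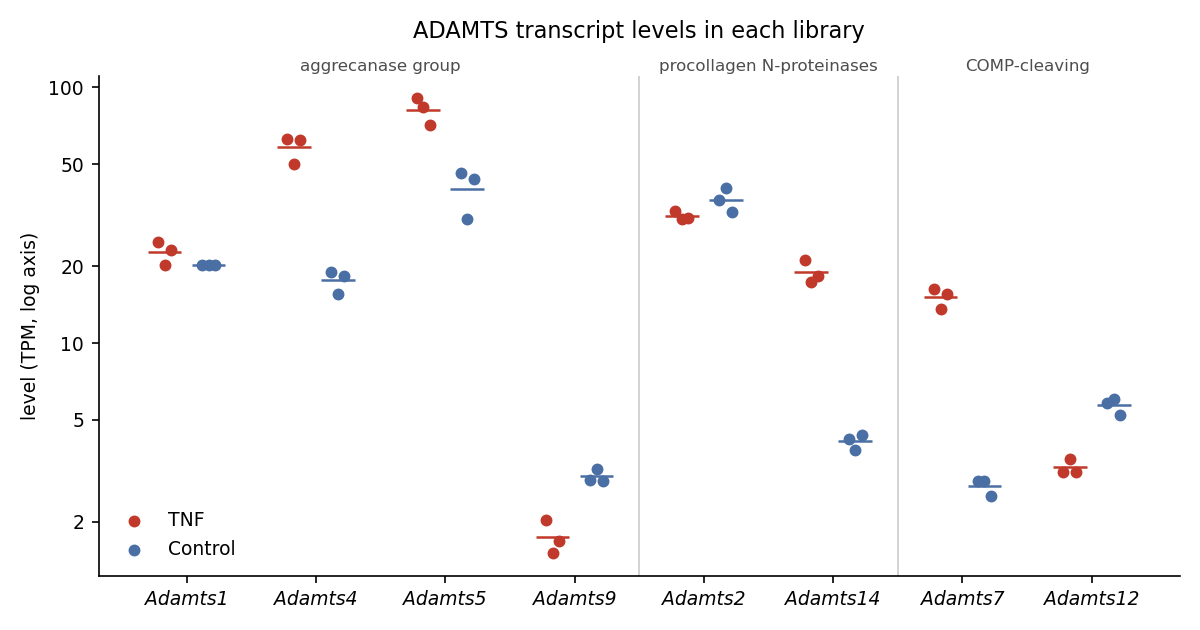
Level of each member (TPM, log axis) in the 3 TNF libraries (red) and the 3 Control libraries (blue), with lines at the group means and members placed by role. Adamts4, Adamts5, Adamts14 and Adamts7 lie higher in all TNF libraries, Adamts9 and Adamts12 lower, and Adamts1 and Adamts2 overlap.

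TPM is scaled to transcript length, so levels can also be ranked between genes. In TNF the order was Adamts5 (81.7 ± 9.71 TPM), Adamts4 (58.4 ± 7.29), Adamts2 (31.3 ± 1.25), Adamts1 (22.7 ± 2.35), Adamts14 (18.9 ± 1.99), Adamts7 (15.1 ± 1.42), Adamts12 (3.27 ± 0.223) and Adamts9 (1.74 ± 0.261), as means ± SD of 3 libraries. Only Adamts1 and Adamts14 overlapped among neighbours in that order. In Control the order was Adamts5 (40.1 ± 8.47 TPM), Adamts2 (36.3 ± 3.98), Adamts1 (20.2 ± 0.0618), Adamts4 (17.6 ± 1.83), Adamts12 (5.72 ± 0.425), Adamts14 (4.13 ± 0.269), Adamts9 (3.01 ± 0.179) and Adamts7 (2.77 ± 0.222). Adamts5 and Adamts2 overlapped there, and the other neighbours did not. Adamts4 thus stood next to the top in TNF, against behind Adamts2 and Adamts1 in Control.

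The 8 members summed to 254, 220 and 226 TPM in TNF libraries 1, 2 and 3, against 137, 123 and 130 TPM in the Control libraries. The summed level was 1.79 times as high in TNF. Adamts4 and Adamts5 together held 60.1% ± 0.878 of it in TNF and 44.3% ± 5.85 in Control (SD, n = 3 each). Adamts14 and Adamts7 together held 14.6% ± 0.482 in TNF and 5.32% ± 0.162 in Control. Adamts2 held 13.5% ± 0.483 in TNF and 28.1% ± 4.24 in Control, although its own level was not called different.

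**Figure D3:**
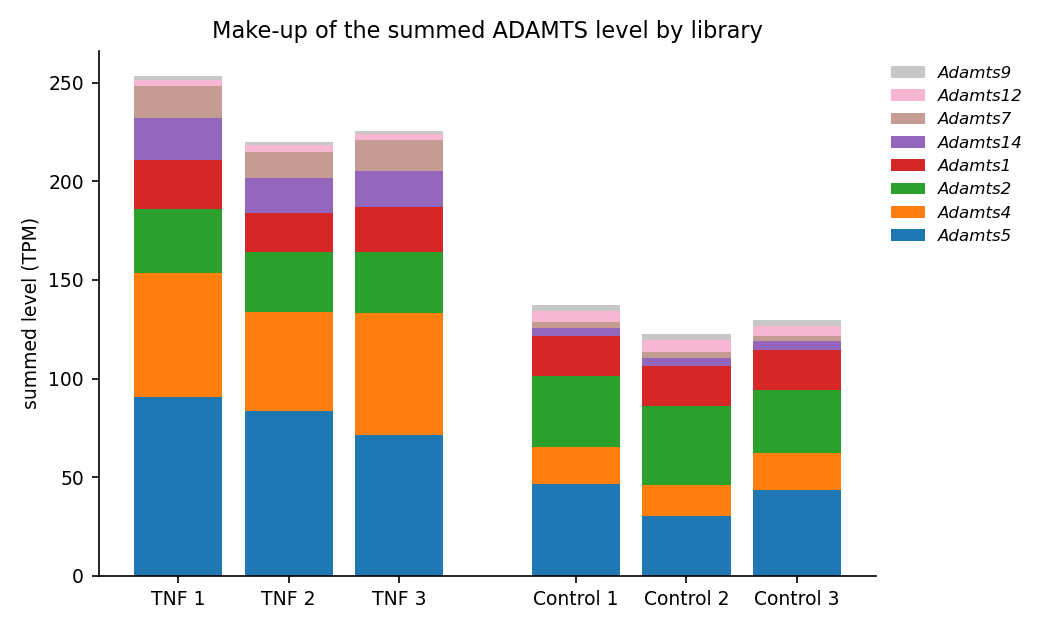
Stacked levels (TPM) of the 8 members in each library, TNF libraries on the left and Control libraries on the right. The stacks reach 220 to 254 TPM in TNF and 123 to 137 TPM in Control, with Adamts4 and Adamts5 as the lower blocks.

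Ratios of TPM between members of the same role do not depend on how a library was scaled. Adamts7 was 5.20, 3.84 and 4.94 times Adamts12 in the TNF libraries, against 0.495, 0.478 and 0.479 times in the Control libraries. The pair therefore changed places, Adamts7 being the higher in TNF and Adamts12 the higher in Control. Adamts14 was 0.646, 0.570 and 0.594 times Adamts2 in TNF, against 0.116, 0.0949 and 0.134 times in Control, so Adamts2 remained the higher. Adamts4 was 0.697, 0.598 and 0.871 times Adamts5 in TNF, against 0.409, 0.508 and 0.420 times in Control. Adamts1 was 12.3, 13.3 and 13.7 times Adamts9 in TNF, against 6.90, 6.29 and 6.99 times in Control. In none of the 4 ratios did the groups overlap. Among single tested genes the CPM of the groups did not overlap in 48.7%, and no such share was computed for ratios. The differences between groups (TNF minus Control) were 3.26 on the log2 scale for Adamts7 over Adamts12, 2.40 for Adamts14 over Adamts2, 0.96 for Adamts1 over Adamts9 and 0.69 for Adamts4 over Adamts5. With 3 libraries against 3, the two-sided exact permutation p was 0.1 for each of the 4 pairs (0.1 after adjustment over them), the smallest this design can give.

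**Figure D4:**
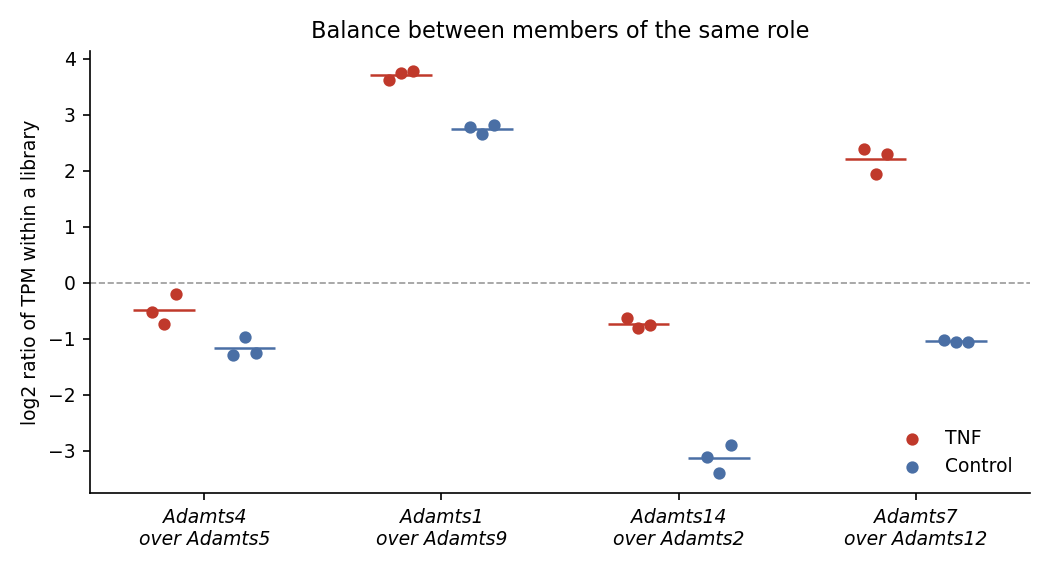
Log2 ratio of TPM between members of the same role in each library, TNF (red) left of Control (blue), with lines at the group means and a dashed line at equal levels. The ratio of Adamts7 to Adamts12 lies above the dashed line in TNF and below it in Control, and all 4 ratios are higher in TNF.

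Promoter sequences of 5 of the 8 members (Adamts1, Adamts2, Adamts9, Adamts12 and Adamts14) were in the RefSeq table. Those of Adamts4, Adamts5 and Adamts7 were not, so Adamts14 was the only member called higher whose window was searched. The 250 bases before the start of Adamts14 and of Adamts2 are shown, since these N-proteinases have the most alike catalytic sites and only Adamts14 was called. Capitals mark GGGCGG, the GC box, on either strand. The Adamts14 stretch is chr10:61273420-61273669 on the minus strand and the Adamts2 stretch chr11:50601835-50602084 on the plus strand (both GRCm38.p6).
Adamts14: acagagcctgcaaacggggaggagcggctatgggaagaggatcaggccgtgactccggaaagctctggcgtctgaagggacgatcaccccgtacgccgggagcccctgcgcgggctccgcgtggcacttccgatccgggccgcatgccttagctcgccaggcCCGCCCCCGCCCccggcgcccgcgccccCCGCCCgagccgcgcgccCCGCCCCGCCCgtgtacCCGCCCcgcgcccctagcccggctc
Adamts2: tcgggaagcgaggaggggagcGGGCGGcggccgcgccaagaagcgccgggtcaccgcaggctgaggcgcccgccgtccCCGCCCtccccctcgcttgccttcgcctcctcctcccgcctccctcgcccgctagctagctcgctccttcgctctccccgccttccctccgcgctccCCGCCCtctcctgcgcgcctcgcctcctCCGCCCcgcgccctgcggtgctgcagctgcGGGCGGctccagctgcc
Both are rich in G and C (76.4% in Adamts14 and 78.0% in Adamts2, beside a median of 52.4% over all promoters in the table). Adamts14 held 6 matches to the GC box, the first 88 bases before the start and a pair sharing 1 base, and Adamts2 held 5. The Adamts1 window held 3, that of Adamts9 held 1 and that of Adamts12 held 0. A GC box was found in 32.7% of all 32851 promoter windows. The NF-kB consensus, found in 7.25% of all windows, had 1 match, in Adamts9, 15 bases before the start and overlapping its GC box. The AP-1 motif TGANTCA (6.75% of windows), the C/EBP motif TTGCNNAA (9.56%) and the STAT motif TTCNNNGAA (7.02%), each on both strands, had 0 matches in the 5 members. TATAAA (12.4%, both strands) was found in Adamts1, 32 bases before the start. Letters in a window do not show binding, and their absence there says nothing of the factor.

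Counts in the lists below stand beside 16.0% of all tested genes called higher and 16.4% called lower. Of the other ADAMTS proteases, 5 of the 11 on the list used were measured. In these, 4 were called lower and 0 higher, and the median log2 fold change was -1.93. All listed genes had at least 10 counts in at least 3 libraries, and Adamts17 and Adamts18 did so only through Control. Their calls, and their part in the count and median, thus follow in part from that listing. Adamts6, Adamts10 and Adamts16 had log2 fold changes of -0.32, -0.43 and -1.93. Adamts10, which acts with fibrillin microfibrils, had 14.1 ± 0.830 CPM in TNF and 19.0 ± 1.84 CPM in Control (log2 fold change -0.43, edgeR adjusted p = 0.0114; SD, n = 3 each), and was not called without Control library 1 or TNF library 1 (adjusted p up to 0.0539) or with limma on log2 TPM (up to 0.0578). Adamts16 fell to 0.580 ± 0.0458 CPM in TNF, against 2.22 ± 0.242 CPM in Control (edgeR adjusted p = 9.71e-05). Adamts17 had 6, 2 and 5 counts in TNF, against 17, 39 and 34 in Control. Adamts18 had 0 counts in all 3 TNF libraries, against 16, 26 and 11 in Control. With a floor of 3 counts over the TNF group, Adamts18 was at least 13.5-fold lower in TNF. The calls of Adamts17 and Adamts18 rest on these few reads, and with limma on log2 TPM and a pseudocount of 1 both calls were lost (adjusted p = 0.118 for Adamts17 and 0.193 for Adamts18). With a pseudocount of 0.1, the call of Adamts17 was lost too (limma adjusted p = 0.0905). Adamts6 was not called (log2 fold change -0.32, edgeR adjusted p = 0.0871), but was called lower with limma on log2 TPM and a pseudocount of 1 (adjusted p = 0.0356).

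ADAMTS-like proteins lack the protease domain and bind microfibrils. Of 5 measured, 3 were called lower and 0 higher (median log2 fold change -1.14). Adamtsl3 fell to 5.98 ± 0.345 CPM in TNF, against 23.9 ± 2.39 CPM in Control (edgeR adjusted p = 2.73e-06), and Adamtsl1 (-1.31) and Thsd4 (-1.14) fell on the log2 scale too. Adamtsl4, the most abundant of them, had 150 ± 12.0 CPM in TNF and 131 ± 1.25 CPM in Control and was not called (edgeR adjusted p = 0.121; SD, n = 3 each).

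Of the 3 TIMPs measured, 2 were called lower and 0 higher (median log2 fold change -0.67). Timp3, the TIMP that binds the aggrecanases most tightly, had 1131 ± 72.7 CPM in TNF and 1901 ± 109 CPM in Control (log2 fold change -0.75, edgeR adjusted p = 0.00165; SD, n = 3 each). Timp2 had a log2 fold change of -0.67 (edgeR adjusted p = 0.0248) and was not called without TNF library 1, 2 or 3 (adjusted p up to 0.101). Timp1 had 934 ± 78.8 CPM in TNF and 724 ± 100 CPM in Control and was not called (edgeR adjusted p = 0.0674), though it was without Control library 2 (edgeR adjusted p = 0.00949) and by DESeq2 (adjusted p = 0.0158). Of the 4 proprotein convertases that can activate ADAMTS precursors, Pcsk6 fell (log2 fold change -0.81, edgeR adjusted p = 0.00351) and the others were not called (median -0.30). In a list of 4, 1 call is near the 32.4% of all tested genes called either way. Furin was not called, at 69.1 ± 2.75 CPM in TNF and 74.0 ± 14.7 CPM in Control.

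Among genes for clearance and cell-surface partners, 1 of 5 rose and 1 fell (median log2 fold change -0.21). In so short a list, that is near the 32.4% of all tested genes called either way. Sdc4 encodes syndecan-4, a proteoglycan that helps to activate ADAMTS5, and it rose to 249 ± 21.6 CPM in TNF, against 96.7 ± 20.2 CPM in Control (edgeR adjusted p = 0.000186; SD, n = 3 each). Mmp17, a membrane protease that processes ADAMTS4, fell by 0.77 on the log2 scale (edgeR adjusted p = 0.00308). Without Control library 2 the count of higher genes was 2, and without Control library 3 that of lower genes was 2. Lrp1 had 820 ± 90.8 CPM in TNF and 1115 ± 294 CPM in Control and was not called (edgeR adjusted p = 0.108), but was called lower by DESeq2 (adjusted p = 0.0449), by limma on log2 TPM (0.0241 to 0.0245 by pseudocount) and by edgeR without Control library 3 (0.0480).

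Of 8 fibrillar procollagen chains, the substrates of Adamts2 and Adamts14 among them, 7 fell and 1 rose (median log2 fold change -0.70). Col11a1 had a log2 fold change of -1.81 (edgeR adjusted p = 1.26e-06) and Col3a1 one of -0.82 (edgeR adjusted p = 0.000803), while Col5a3 rose by 2.58 (edgeR adjusted p = 3.00e-07). The call of Col3a1 was lost with limma on log2 TPM (adjusted p up to 0.418). Of the C-proteinases and their enhancers, Pcolce fell (log2 fold change -0.96), and Bmp1 (0.35) and Tll1 (0.91) were called higher (median of the 4 measured, 0.10). Both calls were lost under some settings. Bmp1 was not called with library totals (edgeR adjusted p = 0.214), with limma on log2 TPM (up to 0.0823), or without Control library 1, Control library 3 or TNF library 1 (up to 0.0871). Tll1 was not called without Control library 1 or TNF library 2 (up to 0.0595).

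Versican (Vcan), a hyalectan cut by the aggrecanases, had 77.9 ± 3.79 CPM in TNF and 94.5 ± 15.3 CPM in Control and was not called (edgeR adjusted p = 0.113; SD, n = 3 each), but was called lower without Control library 3 (adjusted p = 0.0181). Of the 6 hyalectan and hyaluronan genes measured, 2 rose and 2 fell (median log2 fold change -0.30). Cd44, the hyaluronan receptor, rose to 427 ± 9.45 CPM in TNF, against 177 ± 7.01 CPM in Control (edgeR adjusted p = 1.19e-05). Tnfaip6, which binds hyaluronan, rose by 2.05 on the log2 scale from few reads (40 to 69 counts a library in TNF, 13 to 21 in Control). Has2, a hyaluronan synthase, fell to 9.45 ± 1.13 CPM in TNF, against 23.1 ± 0.687 CPM in Control (edgeR adjusted p = 2.99e-05). Hapln1, which links aggrecan to hyaluronan, was the other gene that fell (-1.81). Aggrecan itself was not analysed here.

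Of 15 other reported substrates, 8 fell and 1 rose (median log2 fold change -0.47), while DESeq2 called 9 lower and 2 higher. Without TNF library 2, edgeR called 7 lower and 1 higher. It called 6 lower and 1 higher without TNF library 1, without TNF library 3 or at the threshold of 0.01, as did limma on log2 TPM. Thbs1, a thrombospondin that ADAMTS1 cuts, fell to 2499 ± 140 CPM in TNF, against 8007 ± 1720 CPM in Control (log2 fold change -1.68, edgeR adjusted p = 0.000225; SD, n = 3 each). Thbs2 (-1.55) and Fbln1 (-1.07) fell on the same scale. Comp, the substrate after which Adamts7 and Adamts12 are grouped, fell to 8.16 ± 1.34 CPM in TNF, against 19.1 ± 5.57 CPM in Control (edgeR adjusted p = 0.00218). Sema3c, which ADAMTS1 releases from matrix, was the gene that rose (0.74).

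Over the 6 libraries, the genes most like Adamts7 in centred log2 CPM, of 10838 compared, were Cxcl16 (root-mean-square difference 0.0709), Gpm6b (0.0756) and Gda (0.0762). For Adamts9 they were Cdsn (0.0453), Col3a1 (0.0804) and Igf2 (0.0874). These libraries form 2 separate groups, so the measure mostly ranks genes by a like difference between groups.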

How the data were processed

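Per the submitters' processing notes, reads were processed with Trim Galore, STAR, StringTie and Salmon on GRCm39. Versions and settings are not given in the sources used here. The library kit was SMART-Seq Stranded, per the labels' protocols, and whether counting used strand is not given there. The authors deposited, per library, expected counts as whole numbers (titled normalized in one header line and raw in the next, with totals that differ between libraries) and TPM with gene names. Count lines were joined to TPM lines by position. All 260 zeros coincided, and the median SD over libraries of log2(count/TPM), centred per library, was 0.0275, against 0.413 with lines moved by 1. All 15634 listed genes had at least 10 counts in at least 3 libraries.

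edgeR 4.0.16 under R 4.3.3 modelled the counts (filterByExpr, TMM factors, glmQLFit, glmQLFTest, group only, two-sided). The SE is the log2 fold change divided by the square root of F, so it is approximate. CPM values use TMM factors, and SDs are over 3 libraries. Alternatives used RLE factors, library totals, DESeq2 1.42.0, limma 3.58.1 (voom, or log2 TPM with a pseudocount of 1 or 0.1), other filters, a threshold of 0.01, a replicate block, and each library omitted in turn. Omitting replicate 2 of both groups, and rescaling TPM without 18S, were chosen after seeing the data. The fit was tested on simulated data. Members and gene lists were chosen with earlier results of these data known.

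Named were all members, every other measured ADAMTS protease, measured TIMPs, and up to 3 called genes per list with the smallest adjusted p plus called genes against the list's majority. Adamtsl4, Vcan, Hapln1, Comp, Furin, Lrp1 and genes overlapping members were named after their values were seen. Catalytic sites were found by translating the longest coding transcript. A further gene is not reported here.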

Additional observations from a re-analysis of the deposited data

How the results depend on the processing

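The calls of Adamts4, Adamts5, Adamts7, Adamts9, Adamts12 and Adamts14 kept their direction and their side of the threshold under all 17 alternatives each. Leaving out 1 library at a time, log2 fold changes ranged from 2.46 to 2.63 for Adamts7, 2.22 to 2.32 for Adamts14, 1.78 to 1.84 for Adamts4, 1.004 to 1.21 for Adamts5, -0.94 to -0.73 for Adamts9 and -0.86 to -0.61 for Adamts12. Adamts1 was also called without replicate 2 of both groups (adjusted p = 0.0190). The uncalled Adamts2 ranged from -0.165 to 0.0657 without 1 library each, above 0 without Control library 2, and stood at 0.0181 without replicate 2 of both groups. Its log2 ratio of mean levels was -0.0848 in CPM, against -0.21 in TPM. That of Adamts12 was -0.70 with TPM rescaled without 18S, against -0.81. The difference in Adamts1 over Adamts9 was 1.05 with counts, against 0.96 with TPM. Among uncalled genes, the log2 fold change without 1 library each ranged from -0.19 to 0.0758 for Furin and -0.12 to 0.0176 for Adamtsl5, and without replicate 2 of both groups it was 0.0539 for Furin. The cause of these was not tested.

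Over all genes, 2489 were called higher, but 1612 with library totals, 1477 and 1470 with limma on log2 TPM (pseudocount 1 and 0.1) and 1587 at the threshold of 0.01, where 1534 were called lower instead of 2550. Of the other lists' genes, 7 were called higher, and 11 without replicate 2 of both groups. With a filter at 5 CPM, only 1 of the other ADAMTS proteases was called lower, since the rest were mostly not tested, and with limma on log2 TPM 2 were.

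With the replicate number as a block, 1987 genes were called higher and 1993 lower, and the 4 higher and 2 lower members were called as before. Under the block the calls of Timp2 (adjusted p = 0.0586), Csf1r (0.0616) and Kdr (0.0547) were lost, and 5 of the 8 fibrillar procollagens were called lower instead of 7. The labels do not say that the replicate numbers pair samples, so the numbers were not taken as pairs. Same-numbered libraries did not deviate together (correlations of -0.0125, -0.304 and -0.222), and Control library 2 correlated best with TNF library 3 (0.356). Deviations from the mean of 3 libraries constrain each other, so these correlations cannot decide on pairing. With 3 libraries a group and few reads, Adamts17 and Adamts18 are limited by depth.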

Other observations

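The number of reads per unit of TPM, which follows the transcript length used by the authors' quantification, was compared between groups for each member. The difference (TNF minus Control, log2, each library centred on its median gene) was -0.09 for Adamts9 and 0.07 for Adamts2, and between 0.00 and 0.02 for the other 6 members. For Col3a1, one of the procollagens that the N-proteinases process, it was -0.57, with an SD of 0.622 over the TNF libraries and 0.0145 over the Control libraries. Only 1.05% of tested genes had a larger difference in size than Col3a1. Its log2 fold change was -0.82 by counts and -0.31 by TPM with a pseudocount of 1. Adamts17 also ranked differently by unit in single libraries, with 0.119 TPM from 6 counts in TNF library 1 and 0.0791 TPM from 17 counts in Control library 1.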
